A study of Mus musculus with 10 samples.

Results

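The arachidonate lipoxygenases and the protein that serves one of them were followed in lenses of mouse embryos with and without Dicer, the enzyme that releases mature microRNAs from their hairpin precursors. The 8 genes were taken by symbol: Alox5, Alox5ap, Alox8, Alox12, Alox12b, Alox12e, Alox15 and Aloxe3. All 8 were among the 19938 genes measured, and each had 1 probe set, so the rule that a gene's probe set is chosen by its highest mean over the 10 arrays decided nothing. The family itself was selected on the contrast studied here, because Alox12 was already known to be among the steepest rises in these samples. The values of Alox12 are therefore a description and carry no test, while the other 7 genes were not chosen for how they moved.

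Lenses were dissected at E13.5, and both lenses of an embryo were combined into 1 RNA sample and hybridised to 1 Affymetrix array. DicerCN embryos (Le-Cre+/-;DicerloxP/loxP) carried 1 copy of Le-Cre, a transgene that places Cre recombinase under the Pax6 P0 promoter and so directs it to the ectoderm of lens and cornea, and loxP sites in both Dicer alleles. Control embryos (Le-Cre-/-;DicerloxP/loxP) carried the same flanked alleles without Cre. Their sample titles call them wild type, and no embryo with Cre and intact Dicer was included. Each group had 5 arrays from 5 embryos. Cells of other origin that came along with a lens, such as blood or vessel cells, are not targeted by this promoter.

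Lipoxygenases are iron-containing enzymes that add molecular oxygen to polyunsaturated fatty acids such as arachidonate, which phospholipases free from membranes. The hydroperoxides they make are reduced by glutathione peroxidases to hydroxy fatty acids or turned into leukotrienes and hepoxilins, which act as local signals. Members differ in where they put the oxygen and in where they are made: Alox12 is the enzyme of platelets, Alox15 that of macrophages and reticulocytes, Alox5 that of leukocytes, and Alox8, Alox12b, Alox12e and Aloxe3 are best known from skin. In the lens, products of the platelet type of 12-lipoxygenase have been studied in cultured epithelial cells responding to growth factors.

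In the RefSeq gene table (assembly GRCm38.p6), Alox12, Alox12e and Alox15 lie side by side on chromosome 11, with noncoding genes between the first pair. On the other side of Alox12 lie Rnasek, 0610010K14Rik and precursor genes of microRNAs, which Dicer would process. Among these are the genes of miR-195a and miR-497a, and a further one, Mir497b, was not measured. The mature 5p arms of miR-195a and miR-497a are shown because they are microRNA products encoded beside the gene that rose. Capitals mark the seed, bases 2 to 8, and the seeds are identical.
mmu-miR-195a-5p: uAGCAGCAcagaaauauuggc
mmu-miR-497a-5p: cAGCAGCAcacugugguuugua

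The stretch of 250 bases before the annotated start of Alox12 (GRCm38.p6, chr11:70255371-70255620, minus strand, from the RefSeq table of promoters) is shown because Alox12 is the member on which the results turn. Of the 8 genes, 5 had such a stretch in that table: Alox5, Alox8, Alox12, Alox12b and Alox12e. Capitals mark 2 matches to the GC box GGGCGG and 1 match to the half-site of p53, searched on both strands.
Alox12 upstream: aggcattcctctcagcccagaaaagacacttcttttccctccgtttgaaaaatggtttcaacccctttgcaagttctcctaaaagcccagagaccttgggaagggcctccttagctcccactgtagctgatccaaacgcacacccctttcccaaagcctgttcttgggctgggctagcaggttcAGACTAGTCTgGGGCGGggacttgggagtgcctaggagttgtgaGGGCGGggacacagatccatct

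The GC box occurred in all 5 of these windows and in 32.7% of 32851 windows of the same length. The p53 half-site, which begins 66 bases before the start of Alox12, occurred in 7.13% of all windows and in no other window of the family. The sequence TATAAA was present in 12.4% of all windows and in none of the 5. These are matches of letters, no binding was measured, and the motifs were chosen after the values of Alox12 were seen.

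Alox12, the 12-lipoxygenase first known from platelets, read 8.71, 9.02, 8.57, 8.65 and 8.35 on the log2 scale in control replicates 1 to 5. The 5 DicerCN arrays, in the same order, read 10.10, 10.10, 10.18, 10.18 and 9.60. All DicerCN arrays lay above all control arrays, 4 of them within 0.08 of one another, and replicate 5 was the lowest of its group. The mean log2 signal went from 8.66 ± 0.24 without Cre to 10.03 ± 0.25 with it (SD, n = 5 each). The difference was 1.38 (SE 0.14, 95% confidence interval 1.08 to 1.67), a signal 2.59-fold higher. Since Alox12 was chosen for its rise on these same arrays, this interval is a description and not a test. Its mean log2 signal over the 10 arrays stood at the 88.4th percentile of all genes, although signals of different probe sets do not rank the abundance of their transcripts.

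The other 7 genes were measured at low signal. As a gauge of background, 1015 olfactory receptor genes had a median log2 signal of 4.09 and a 95th percentile of 5.74. Above that percentile lay 69.1% of all genes, but of the 7 only Alox5, Alox5ap and Alox15, and all 7 had log2 signals between 4.98 and 6.45. An array has no zero, and how much of such a signal comes from the transcript was not tested.

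**Figure D1:**
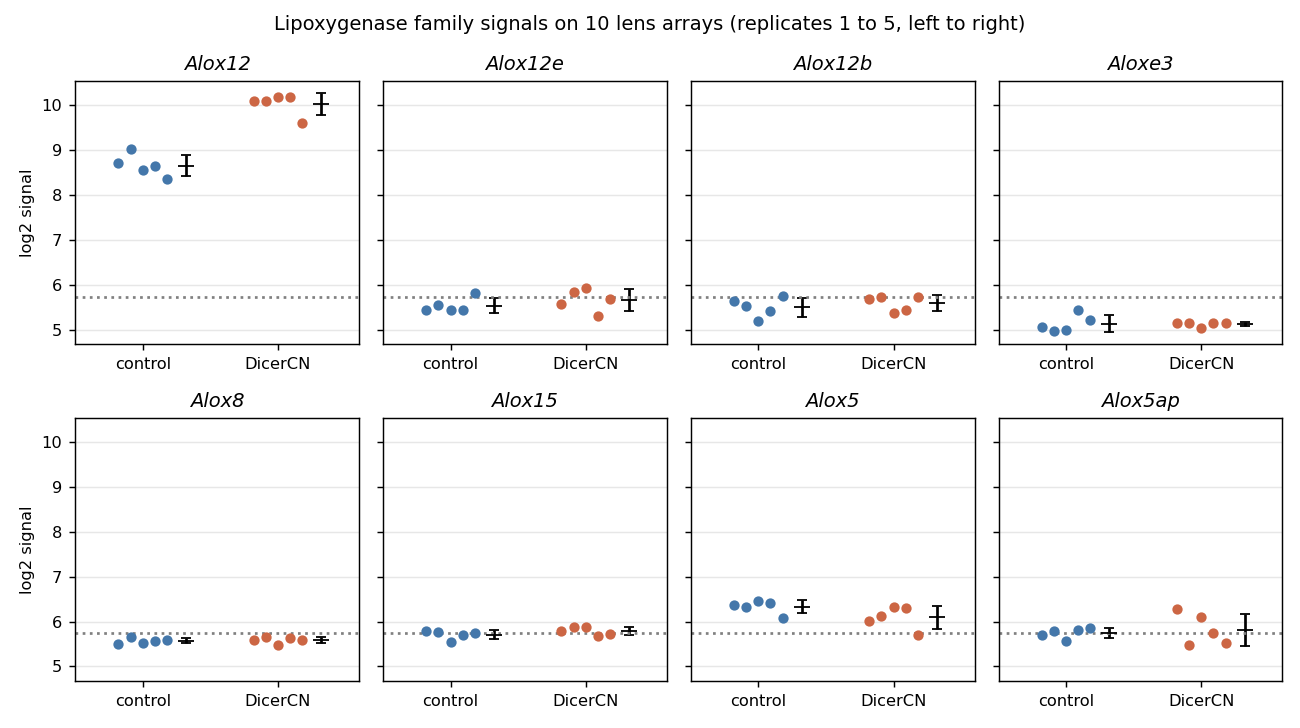
Log2 signal (vertical axis) of the 8 genes on each of 5 control and 5 DicerCN arrays, with replicates 1 to 5 from left to right; bars are mean ± SD, and the dotted line is the 95th percentile of olfactory receptor genes (5.74). Alox12 is the only panel in which the groups are apart, at 8.35 to 9.02 against 9.60 to 10.18.

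Over all genes, 6.54% differed between the groups at a limma adjusted p under 0.05, 2.56% higher and 3.97% lower in DicerCN lenses. Of the 8 family genes, 1 was past that threshold, namely Alox12, and nothing is read from this count, since the family was taken up for that gene. The groups failed to overlap in 1 of the 8, again Alox12, against 7.38% of all genes, and DicerCN arrays lay above control arrays throughout in 2.96% of them. Among genes above the olfactory receptor percentile the share that differed was 9.19%. The median difference over the 8 was 0.081 on the log2 scale, and over all genes it was −0.0014. None of the other 7 genes passed the test or had an unadjusted p under 0.05. Their limma adjusted p lay between 0.310 and 0.986, and the 95% intervals of all 7 differences lay between −0.49 and 0.40 on the log2 scale.

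Alox12e, the epidermal 12-lipoxygenase, had log2 signals of 5.43, 5.55, 5.43, 5.44 and 5.83 in control and 5.58, 5.84, 5.93, 5.30 and 5.68 in DicerCN replicates 1 to 5. The groups overlapped, with the lowest and the highest array both in DicerCN lenses. Its difference was 0.13 (SE 0.12, limma adjusted p = 0.645). Alox15, the 12/15-lipoxygenase of macrophages and reticulocytes, ranged from 5.55 to 5.79 in control and from 5.69 to 5.89 in DicerCN lenses; these ranges overlapped. Its difference was 0.083 (SE 0.074, limma adjusted p = 0.634). The interval of the difference for Alox15, −0.078 to 0.24, reached no further than a rise of 0.24 on this scale.

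Alox12b, the 12R-lipoxygenase, and Aloxe3, which turns its product into hepoxilin-type alcohols, act one after the other in forming the lipid envelope of the epidermis. Alox12b had log2 signals of 5.63, 5.53, 5.19, 5.42 and 5.75 in control and 5.68, 5.74, 5.38, 5.44 and 5.74 in DicerCN replicates 1 to 5. Aloxe3 ranged from 4.98 to 5.43 in control and from 5.04 to 5.16 in DicerCN lenses. In both genes the groups overlapped almost wholly. The differences were 0.089 for Alox12b (SE 0.11, limma adjusted p = 0.762) and −0.0064 for Aloxe3 (SE 0.092, limma adjusted p = 0.986). The sign of Aloxe3 turned under several settings and has no meaning at this size. Alox8, the 8S-lipoxygenase of mouse skin, was the steadiest in control lenses (SD 0.060), at 5.51 to 5.66 in control and 5.48 to 5.66 in DicerCN lenses. Its difference was 0.020 (SE 0.067, limma adjusted p = 0.926).

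Alox5, the enzyme that begins leukotriene synthesis, read 6.36, 6.33, 6.45, 6.42 and 6.09 on the log2 scale in controls 1 to 5. The DicerCN replicates 1 to 5 had 6.01, 6.13, 6.32, 6.30 and 5.71. Control arrays were higher on average but replicate 5 was the lowest of each group, and the groups overlapped. The difference was −0.24 (SE 0.12, 95% interval −0.49 to 0.017, limma adjusted p = 0.310), which did not pass the test. Alox5ap is not a lipoxygenase but the membrane protein, also called FLAP, that presents arachidonate to Alox5. Its log2 signals were 5.70, 5.78, 5.57, 5.81 and 5.85 in control and 6.28, 5.47, 6.10, 5.74 and 5.52 in DicerCN replicates 1 to 5. DicerCN arrays held both the lowest and the highest values, with an SD of 0.36 against 0.11 in control lenses. The difference was 0.080 (SE 0.15, limma adjusted p = 0.848), and it turned to −0.035 without DicerCN replicate 1, to −0.26 once the macrophage marker score was in the model and to −0.042 with the platelet score.

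**Figure D2:**
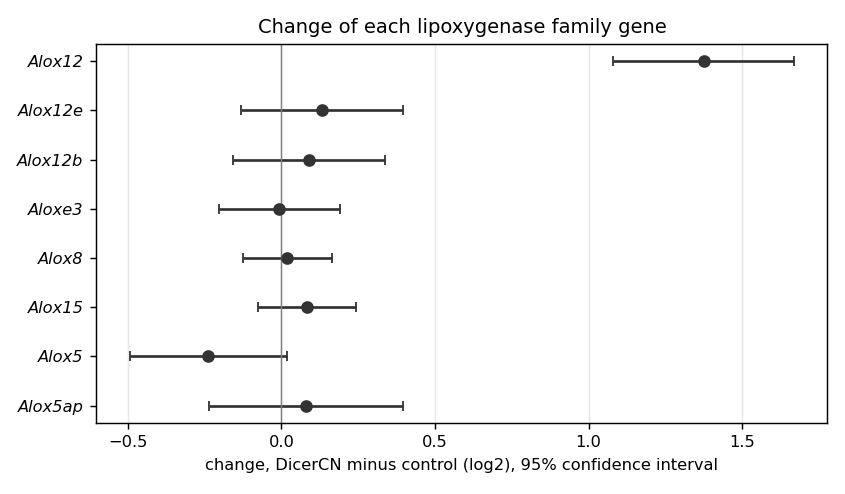
Difference between DicerCN and control lenses on the log2 scale (horizontal axis) for the 8 genes, with 95% confidence intervals of the fit. The interval of Alox12 runs from 1.08 to 1.67, and the intervals of the other 7 genes include 0. Alox12 was chosen for its rise on these same arrays, so its interval is a description and not a test.

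The neighbourhood of Alox12 was read to see if the rise was shared along the chromosome. This window, from Bcl6b to Pelp1, was chosen after the values were seen, and 9 of its 15 annotated genes were measured. Apart from Alox12, 0 of the other 8 passed the test, against 6.54% of all genes, and their differences ran from −0.22 to 0.25 on the log2 scale. With so few genes and that share, the count of 0 does not decide if the rise was shared. Alox12e, Alox15 and Mir497 had mean log2 signals near the olfactory receptor percentile of 5.74 (5.53, 5.71 and 5.77 in control lenses). How far a rise would show at such signals was not tested. Rnasek, the nearest measured gene, which encodes a small membrane protein, had a mean log2 signal of 10.32 ± 0.20 without Cre and 10.57 ± 0.29 with it (SD, n = 5 each), a difference of 0.25 (SE 0.14, limma adjusted p = 0.374). For 0610010K14Rik the difference was −0.22 (SE 0.12, limma adjusted p = 0.394). The probe sets of the microRNA precursors Mir195a and Mir497 differed by −0.0017 (SE 0.087) and −0.042 (SE 0.097), with limma adjusted p of 0.995 and 0.885. They read the precursor genes and not the mature microRNAs. In the gene table the noncoding gene Gm40191 overlaps Alox12 on the opposite strand. It was not measured, the positions of the probes were not used here, and its part in the Alox12 signal was not tested.

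**Figure D3:**
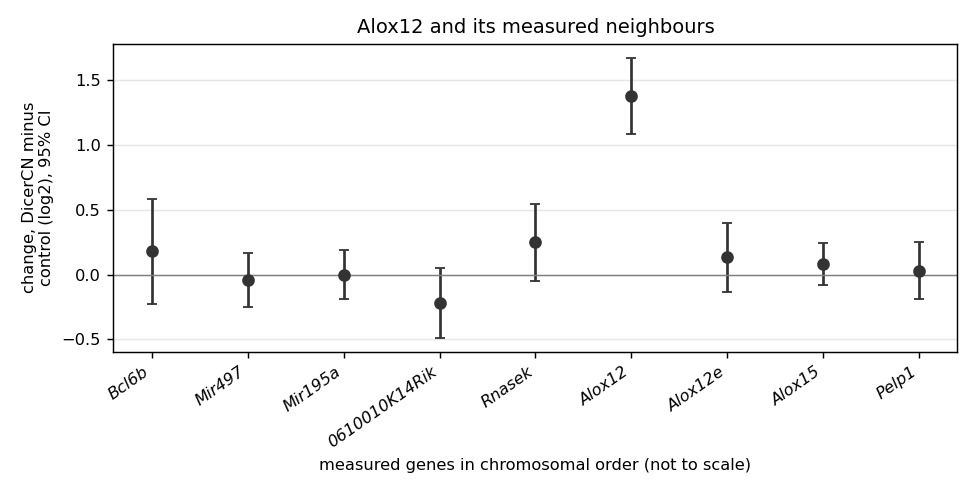
Difference between DicerCN and control lenses on the log2 scale (vertical axis), with 95% confidence intervals, for the 9 measured genes from Bcl6b to Pelp1 in chromosomal order, not to scale. Alox12, chosen for its rise, stands at 1.38 with an interval that is no test, and the other 8 lie between −0.22 and 0.25.

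Genes whose signals followed that of Alox12 most closely over the 10 arrays were P2rx4, a cation channel opened by ATP (Pearson r = 0.976), Btg2, an antiproliferative gene induced by p53 (0.968), Pde10a, a phosphodiesterase (0.967), Gigyf1 (0.966) and App, the amyloid precursor protein (0.965). These values describe likeness among 10 arrays that fall into 2 groups, and any gene that parts the groups cleanly comes out high. All 5 were higher in DicerCN lenses, by 0.78, 1.72, 0.48, 0.69 and 0.58 on the log2 scale. With each group's mean taken away, the r of the same genes was 0.699, 0.586, 0.707, 0.551 and 0.675, values that are raised by having picked the genes for their likeness on these same arrays.

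Of 112 measured genes in 7 lists outside the family, 2 were higher and 3 lower in DicerCN lenses (4.46%, against 6.54% of all genes), and their median difference was 0.019 on the log2 scale. The lists were drawn up with earlier results of these data known. With array weights 8 genes passed (7.14%, against 8.28% of all genes), and 2 did in a fit that included the macrophage score (1.79%, against 1.03% of all genes), so the order of the 2 shares was not kept. The list share was also the larger without control replicate 1 (4.46% against 3.93%), 2 (4.46% against 4.34%) or 5 (4.46% against 4.38%). The same held without DicerCN replicate 2 (6.25% against 5.53%) or 3 (6.25% against 5.43%), and with the neural retina score (5.36% against 4.88%).

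Upstream of the lipoxygenases, 1 of 23 genes that free arachidonate from lipids or return it to them was higher and 0 were lower (median 0.040). It was Pla2g15, the lysosomal phospholipase A2, with log2 signals of 7.09, 7.06, 7.17, 6.94 and 6.95 in control and 7.67, 7.53, 7.51, 7.31 and 7.41 in DicerCN replicates 1 to 5. No DicerCN array came as low as any control, and Pla2g15 rose by 0.45 (SE 0.084, limma adjusted p = 0.00738). Its call ended in a fit with the macrophage score (difference 0.40, adjusted p = 0.172). That score itself largely parts the groups, at −0.31 to 0.32 in control and 0.19 to 1.0 in DicerCN lenses. With it in the fit 206 of all genes passed, against 1303 without it, so a call lost there is not particular to Pla2g15. Pla2g2a, a secreted phospholipase, Daglb, a diacylglycerol lipase, and Pla2g6, a calcium-independent phospholipase, stood at 0.19, 0.33 and 0.32 (limma adjusted p = 0.145, 0.153 and 0.157). Others of the list were lower: Pla2g4a, Pla2g4c and Mboat7 stood at −0.34, −0.22 and −0.21 (limma adjusted p = 0.236, 0.206 and 0.246). They are named after their values were seen. Without adjustment the limma p was under 0.05 for 7 of the 23 genes. The share of all genes with such a p was not counted, so nothing is read from this count or from those of the lists below. With the replicate number as a block, Daglb passed (adjusted p = 0.0460).

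Of 7 genes of leukotriene synthesis and breakdown and 9 receptors of lipoxygenase products, 0 were higher and 0 lower in limma, and medians were 0.036 and −0.013. Without adjustment the p was under 0.05 for 2 of these 16 genes. Both belong to the leukotriene list: Lta4h, the hydrolase that makes leukotriene B4, stood at −0.19 (SE 0.080, limma adjusted p = 0.209), and Dpep2, a dipeptidase that trims leukotriene D4, at 0.29 (SE 0.12, limma adjusted p = 0.206). Mgst2, a leukotriene C4 synthase, differed by 0.12 (limma adjusted p = 0.465). Among the receptors, Oxgr1, Ltb4r1 (the leukotriene B4 receptor) and Cysltr2 (a receptor of cysteinyl leukotrienes) had differences of −0.16, 0.17 and −0.11 with limma adjusted p from 0.444 to 0.591. Only 3 of the 9 receptors had a mean signal above the olfactory receptor percentile. In a fit with the macrophage score Ltb4r1 stood at −0.046.

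Of 22 genes of the cyclooxygenase pathway, which competes for the same fatty acid, 0 were higher and 1 lower (median −0.014). Without adjustment the limma p was under 0.05 for 7 of them. Of the cyclooxygenases themselves, Ptgs1 was not measured. Ptgs2, named after its value was seen, stood at −0.17 and did not pass (limma adjusted p = 0.175). Its DicerCN arrays all lay below the controls, at a mean signal under the olfactory receptor percentile. Ptges2, a prostaglandin E synthase, had log2 signals of 7.34, 7.42, 7.36, 7.38 and 7.37 in control and 7.08, 6.91, 6.91, 7.26 and 6.98 in DicerCN replicates 1 to 5. All DicerCN arrays were lower, and Ptges2 fell by 0.35 (SE 0.079, limma adjusted p = 0.0201). It no longer passed when control replicate 2 was left out (adjusted p = 0.0552), with the replicate block (0.0502), with the macrophage score (0.164) and without control replicate 4 and DicerCN replicate 5 (0.0691), while the difference stayed between −0.41 and −0.32 under all 20 alternatives. Ptgfr, the receptor of prostaglandin F2-alpha, stood at −0.67 (SE 0.19, limma adjusted p = 0.0602). It passed without DicerCN replicate 2 (0.0125), with the replicate block (0.0406) and with array weights (0.0425). Hpgds, a prostaglandin D synthase of blood cells, and Ptgr2, a prostaglandin reductase, stood at 0.53 and −0.38 (limma adjusted p = 0.10 and 0.135). Hpgds passed without DicerCN replicate 2 (0.0279) and Ptgr2 without DicerCN replicate 1 (0.0320). In a fit with the macrophage score Hpgds, Ptgr2 and Ptgfr stood at 0.15, −0.21 and −0.31 (adjusted p = 0.835, 0.712 and 0.661).

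Of 17 genes of the cytochrome P450 and epoxide hydrolase pathway, the third route of arachidonate oxidation, 1 was higher and 0 lower (median 0.016). Cyp2j6, of a subfamily that makes epoxides of fatty acids, had log2 signals of 5.38, 5.73, 6.17, 6.0 and 5.26 in control and 6.68, 6.27, 6.71, 6.54 and 6.23 in DicerCN replicates 1 to 5. The groups came close but did not overlap, and Cyp2j6 rose by 0.78 (SE 0.17, limma adjusted p = 0.0163). In a fit with the macrophage score the difference was 0.29 and did not pass (adjusted p = 0.497). Ephx1, an epoxide hydrolase, Cyp4a14 and Cyp2c38 stood at 0.28, −0.27 and 0.18 (limma adjusted p = 0.285, 0.294 and 0.384).

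Genes that reduce lipid hydroperoxides, the first products of lipoxygenases, included the steepest difference in these lists: of 15, 0 were higher and 2 lower, with a median of 0.0096. Slc7a11, the cystine and glutamate exchanger that feeds glutathione synthesis, went from log2 signals of 10.52, 10.87, 10.98, 9.91 and 10.35 in control to 8.73, 8.98, 8.57, 8.89 and 8.86 in DicerCN replicates 1 to 5. Gpx1, a glutathione peroxidase, went from 11.13, 11.09, 11.20, 10.92 and 11.08 to 10.57, 10.55, 10.64, 10.31 and 10.33. In both genes all DicerCN arrays lay below all control arrays. Slc7a11 fell by 1.72 (SE 0.17, limma adjusted p = 0.000153) and Gpx1 by 0.60 (SE 0.087, limma adjusted p = 0.00145). Slc7a11 was on the list with its fall already known. Txnrd1, a thioredoxin reductase, Slc3a2, the partner chain of Slc7a11, and Nfe2l2, a transcription factor of antioxidant genes, stood at 0.30, −0.21 and −0.22 (limma adjusted p = 0.144, 0.217 and 0.403). Txnrd1 passed without DicerCN replicate 3 (0.0147) and with array weights (0.0475). Gpx4, the peroxidase of membrane lipids, differed by 0.0096 (SE 0.084, limma adjusted p = 0.974), and it is named after its value was seen.

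**Figure D4:**
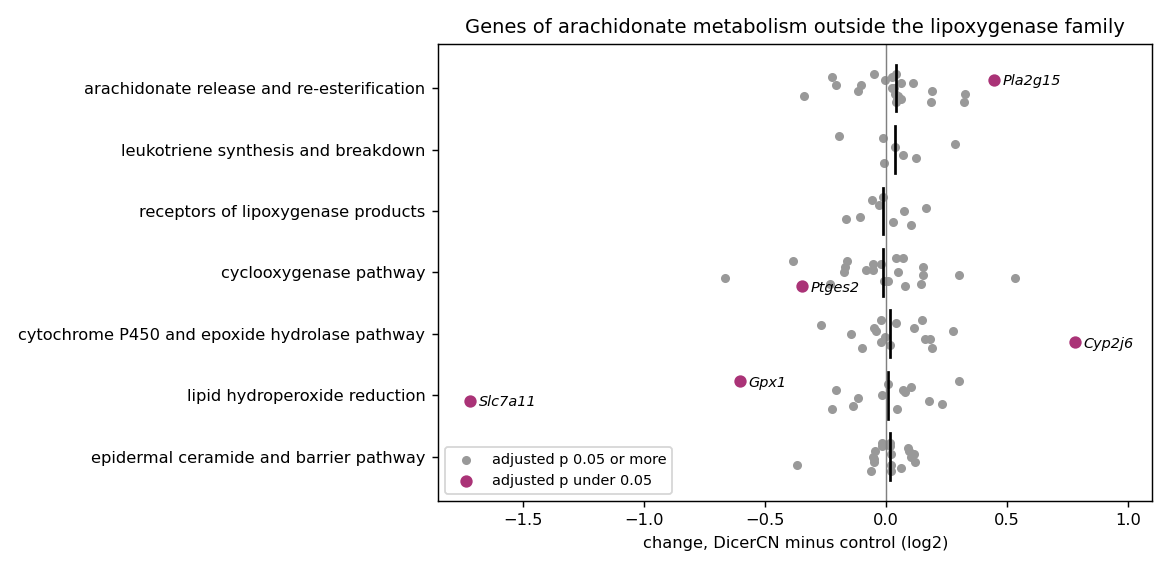
Difference between DicerCN and control lenses on the log2 scale (horizontal axis) for 112 genes of 7 lists outside the lipoxygenase family; each point is a gene, black bars are list medians, and named points passed the test. The medians lie between −0.014 and 0.040, and Slc7a11 lies farthest from 0, at −1.72.

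The ceramide and barrier genes that work with Alox12b and Aloxe3 in epidermis gave 0 higher and 0 lower of 19 in limma (median 0.018), and 1 had an unadjusted p under 0.05. That gene was Smpd1, acid sphingomyelinase, at −0.37 (SE 0.11, limma adjusted p = 0.0629), which passed without control replicate 2 (0.0405), without DicerCN replicate 3 (0.0289) and with array weights (0.0370). Pnpla1, a ceramide acyltransferase of skin, and Abhd5, a lipase activator, stood at 0.12 and 0.093 (limma adjusted p = 0.538 and 0.609).

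The samples were lens by their markers: Cryaa, Crybb1 and Cryba1, crystallin genes of lens, had mean log2 signals of 14.42, 14.36 and 13.98 in control lenses and of 14.36, 14.29 and 13.86 in DicerCN lenses. Of 12 lens markers 0 passed in limma and 2 had an unadjusted p under 0.05, Bfsp1 at −0.45 and Lim2 at −0.33. Differences were positive in 2 of the 12, with a median of −0.12, and lens scores ran from −0.10 to 0.099 in control and from −0.43 to 0.18 in DicerCN lenses. Bfsp2 had the widest spread of the 12 (SD 1.15 in control and 1.47 in DicerCN lenses), and its part in the lens score was not tested. Markers of the cells best known for lipoxygenases were scored on each array as the mean log2 signal of the list minus the control mean. Of 15 measured markers of epidermis and corneal surface ectoderm, 0 passed in limma, 8 had signals above the olfactory receptor percentile, and scores ran from −0.056 to 0.062 in control and from −0.13 to 0.068 in DicerCN lenses. Of 8 platelet and megakaryocyte markers 0 passed, and scores ran from −0.17 to 0.23 in control and from −0.27 to 0.55 in DicerCN lenses. Of 16 macrophage markers 3 were higher and 0 lower (Csf1r, Cx3cr1 and Itgam), 18.8% against 6.54% of all genes. Macrophage scores ran from −0.31 to 0.32 in control and from 0.19 to 1.0 in DicerCN lenses. Of 12 granulocyte and mast cell markers 0 passed, with scores from −0.10 to 0.25 and from −0.21 to 1.3. Of the macrophage markers 15 of 16 had positive differences, with a median of 0.54. Other lists leaned the same way, with 0 markers past the test. Differences were positive in 10 of 10 neural retina markers (median 0.66), 10 of 10 vessel (0.22), 7 of 9 pigment epithelium (0.31) and 6 of 7 erythroid markers (0.22). So were those of 9 of 12 granulocyte and mast cell markers (median 0.24, range −0.19 to 1.85). Among platelet and megakaryocyte markers 6 of 8 were positive (median 0.12, range −0.095 to 0.63). In the epidermis and corneal list 5 of 15 were positive (median −0.039). Striated muscle went the other way, with 1 of 10 positive (median −0.64). Unadjusted p under 0.05 were found in 13 genes of the macrophage list, 2 of the epidermis list, 0 of the platelet list and 5 of the granulocyte list. The share of all genes with such a p was not counted. Counts by unadjusted p, here and for the other lists, are therefore not set against it. In whole lenses, a change in the share of a cell type and a change of RNA per cell cannot be told apart.

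Alox12 was 1.14 higher in DicerCN lenses in a fit with the macrophage score, 1.27 with the platelet score and 1.45 with the neural retina score, against 1.38 with none of them. DicerCN replicate 5, the lowest of its group in Alox12, had the highest neural retina score (1.78) and the lowest lens (−0.43), platelet (−0.27) and vessel (−0.36) scores of all 10 arrays. Its pigment epithelium score was 0.84 and its macrophage score 0.22, and the part of the lens score in its Alox12 value was not tested. Nor was the part of Bfsp2, the most variable lens marker, in that lens score. Without it the Alox12 difference was 1.48. Alox5ap was highest in DicerCN replicates 1 and 3, the arrays with the highest macrophage scores (0.82 and 1.02), and Alox5 stood at −0.49 with that score as a covariate. DicerCN replicates 1 and 3 also had the highest granulocyte (0.81 and 1.31), platelet (0.55 and 0.38) and vessel (0.62 and 0.80) scores of all 10 arrays. The part of other cell types in the differences of Alox5 and Alox5ap was tested no further.

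**Figure D5:**
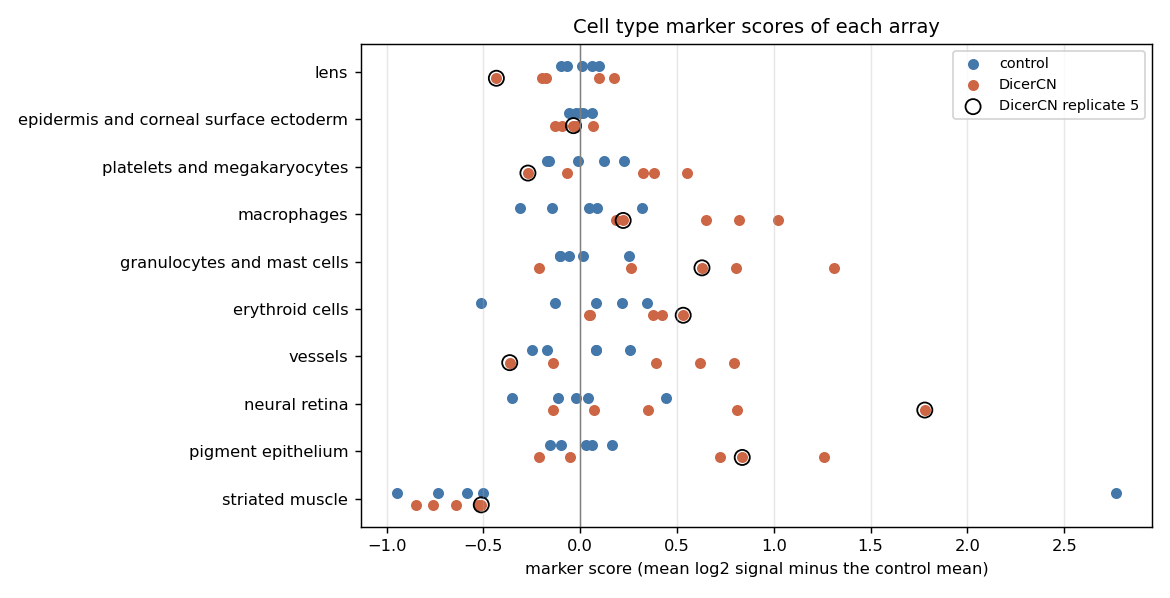
Marker score of each array (horizontal axis, mean log2 signal of the list minus the control mean) for 10 cell type lists in 5 control and 5 DicerCN lenses; the ring marks DicerCN replicate 5. Epidermis and corneal scores stay between −0.13 and 0.068, macrophage scores reach 1.0 in DicerCN lenses, and control replicate 4 stands apart in striated muscle at 2.77.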

How the data were processed

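RNA of whole lenses was measured on 10 arrays, 5 per group, labelled from 100 ng of total RNA by the whole-transcript sense-strand assay, per the labels' protocols. By their range the deposited values are log2 signals (1.91 to 15.2, array medians 6.54 to 6.56), scaled between arrays by the authors before deposit; the submitters' processing notes name GCOS, and the summarisation method, the build and the log base are not given in the sources used here. Arrays correlated at 0.977 to 0.990. Of 35557 probe sets, 21789 had 1 gene symbol in the platform annotation, 1621 several and 12147 none; the last 2 kinds were left out. Gene IDs matched RefSeq (GRCm38.p6) for 21698. The probe set with the highest mean stood for each gene.

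All 19938 genes were fitted with limma 3.58.1 (R 4.3.3; lmFit, eBayes, 2-sided), with Benjamini-Hochberg adjustment over all genes and a threshold of 0.05. The number of arrays limits the precision (median SE 0.0986). On simulated data the fit recovered 97% of 100 genes changed by 1 and 55% of 100 changed by 0.5 on the log2 scale, among 19938 genes. It also called 9 unchanged genes. The simulated noise was normal and independent between genes and arrays, with the same variance in both groups. Variation shared between genes, as in the marker scores, was not simulated, so these shares need not hold for the real arrays.

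Replicate numbers were not taken as pairs, because the sources state no block. Deviations of same-numbered arrays correlated above 0.1 in 1 of 5 pairs. These were not set beside differently numbered arrays, so they do not decide if the numbers mark pairs. The members, lists and tests were chosen with earlier results of these data known. Named were the members, list genes that passed with up to 3 others per list by smallest p, up to 3 markers per list, the 5 genes most correlated with Alox12 and its neighbours; the neighbour window was widened after values were seen, and not every marker allowed is named. Settings tried were leaving out each array, a replicate block, quantile normalization, probe set means, a low-signal filter, array weights, a variance trend and a macrophage covariate; leaving out 2 arrays and the platelet and retina covariates were added after seeing the data.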

Additional observations from a re-analysis of the deposited data

Results flagged for a closer look

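In 124 groups of 5 arrays (named genes and list scores), 5 held 1 array far from the other 4 by Dixon's criterion, 4.03% where chance gives about 5%. Alox12 was 9.60 in DicerCN replicate 5 and 10.10 to 10.18 in the other 4. Aloxe3 was 5.04 in DicerCN replicate 3 and 5.14 to 5.16 in the others. Ltb4r1 was 5.63 in DicerCN replicate 3, above 5.06 to 5.22 in the others. Abhd5 was 8.58 in DicerCN replicate 1, above 8.29 to 8.36. The striated muscle score was 2.77 in control replicate 4 and between −0.95 and −0.50 in the other control arrays.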

How the results depend on the processing

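The Alox12 difference lay between 1.14 and 1.48 on the log2 scale under all 20 alternatives, 1.30 to 1.48 with 1 array left out and 1.38 with the replicate block, and the count of family members past the threshold was 1 in all 20, which says nothing of stability because the family was selected for that gene. The count over all genes (1303) was 784 to 1295 with 1 array left out (784 without control replicate 1, 865 without control replicate 2), 1100 with the replicate block and 206 with the macrophage covariate, of which 26.7% were higher against 39.2%. The count over the 112 pathway genes (5) was 5 to 7 with 1 array left out, 8 with array weights and 2 with the macrophage covariate.

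Signs turned only in genes that did not pass in the fit reported, and the cause was not tested. With 1 array left out the differences ran from −0.035 to 0.17 in Alox5ap, from −0.044 to 0.068 in Aloxe3, from −0.050 to 0.055 in Mir195a, from −0.083 to 0.010 in Mir497 and from −0.034 to 0.096 in Pelp1. With the macrophage covariate Alox5ap stood at −0.26, Bcl6b at −0.48 (adjusted p = 0.0438), Ltb4r1 at −0.046 and Mir195a at 0.024. With the platelet covariate Alox5ap stood at −0.042, Aloxe3 at 0.020, Bcl6b at −0.021 and Mir195a at 0.018. With the retina covariate Alox8 stood at −0.00071, Aloxe3 at 0.0069, Mir195a at 0.047 and Mir497 at 0.013. Aloxe3 was 0.00049 after quantile normalization and, with array weights, 0.021, where Pelp1 was −0.0085. Without control replicate 4 and DicerCN replicate 5, Aloxe3, Mir195a, Mir497 and Pelp1 were 0.062, 0.019, 0.055 and −0.019. With the macrophage covariate App and Pde10a differed by 0.45 and 0.43, against 0.58 and 0.48 without it, and did not pass (adjusted p = 0.0976 and 0.115). That covariate largely parts the groups, and calls lost under it are not particular to these genes. Low signal limits what can be seen in the 7 genes beside Alox12.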
